A study of Mus musculus with 2 samples.

Results

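Naive or central memory-like CD8 T cells were 1210 of the 5488 T cells (22.0%) in single-cell libraries of mammary fat pad, with 432 of them in the parous library and 778 in the virgin library. A T cell here was a kept cell with at least 1 UMI (unique molecular identifier, standing for 1 captured RNA molecule) of the CD3 chain genes Cd3d, Cd3e or Cd3g. To be counted in the population, a T cell needed at least 1 UMI of Ccr7, at least 1 UMI of Lef1, Dapl1 or Igfbp4, and 0 UMIs of each of 7 genes of resident, effector, exhausted or innate-like cells (Itga1, Cxcr6, Gzmk, Gzma, Gzmb, Pdcd1 and Fcer1g). The 14 genes of this rule chose the cells, so their levels are given below as a description and support nothing. The cells that met the rule are called members, and the remaining T cells are called other T cells.

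Both groups were untreated C57BL/6 mice, and in both the sort took live cells positive for CD45, the T cell receptor beta chain and CD8a from the 4th mammary fat pad, the fatty tissue in which the mouse mammary gland grows. The parous group had been through more than 1 pregnancy (multiparous) and the virgin group had not been pregnant. The sources used here give neither age nor time since weaning. Cells of 5 or more mice were pooled into 1 library of 5-prime ends for each group. Differences between groups therefore had no replicate check, and no test was made. Every interval below is an exact 95% interval of counting error that leaves out the spread between mice and between preparations. Intervals of summed levels and of their ratios count each UMI as independent, so they leave out the spread between cells too.

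Naive CD8 T cells have left the thymus and have not yet met their antigen, and central memory cells have met it and have gone back to recirculating. Both travel from blood into lymph nodes by adhesion molecules and the chemokine receptor CCR7, leave again along a gradient of sphingosine-1-phosphate, and live on IL-7 and IL-15. In non-lymphoid tissue such as a fat pad, most CD8 T cells are memory or resident cells. Naive cells found there can be passing through, can sit in blood or lymph vessels, or can come from a lymph node embedded in the tissue. The inguinal lymph node lies in the 4th mammary fat pad of the mouse, and the sources used here do not say whether it was taken out before the sort.

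The 4 marker genes that admitted cells have different roles. Ccr7 (chr11:99144196-99155077, minus strand) encodes the receptor for the lymph node chemokines CCL19 and CCL21. Lef1 (chr3:131110471-131224356, plus strand) encodes a transcription factor that keeps naive and memory cells multipotent together with TCF-1. Dapl1 (chr2:59484653-59505020, plus strand) is a gene typical of naive and central memory CD8 T cells, and Igfbp4 (chr11:99041244-99054392, plus strand) encodes a secreted protein that binds insulin-like growth factors. Positions come from GENCODE release 21 for mouse (GRCm38, also called mm10). The promoter of Igfbp4 is shown because it was the only 1 of the 3 marker genes with a RefSeq promoter entry to hold any of 4 motifs searched on both strands. Motifs of CREB (CRE, TGACGTCA), AP-1 (TGANTCA), TCF/LEF factors (CTTTGAT) and KLF factors (CCACACCC) were looked for. The capitals mark the KLF motif, read here on the opposite strand. This motif stands in 3.56% of 32851 promoter windows of the same length. The window runs from 250 bases before to 50 bases after the start of transcription on RefSeq GRCm38.p6, chr11:99040994-99041293, plus strand, 5′ to 3′.
Igfbp4 promoter: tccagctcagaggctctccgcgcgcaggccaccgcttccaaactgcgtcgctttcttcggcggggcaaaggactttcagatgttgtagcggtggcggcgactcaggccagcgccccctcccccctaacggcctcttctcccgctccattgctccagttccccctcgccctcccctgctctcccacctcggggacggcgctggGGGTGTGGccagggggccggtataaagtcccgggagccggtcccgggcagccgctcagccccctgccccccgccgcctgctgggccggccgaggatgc

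Members made up a smaller share of T cells in the parous library. They were 432 of 2991 parous T cells (14.4%, interval 13.2 to 15.8%), against 778 of 2497 virgin T cells (31.2%, interval 29.3 to 33.0%), a share 2.16-fold lower in the parous library. A rule that needs 1 UMI of some genes and 0 of others depends on depth, and parous members were shallower, with a median of 4861 UMIs and 1504 genes per cell, against 7567.5 UMIs and 2079 genes in virgin members. With every cell thinned at random to 1400 UMIs before the rule was applied, members were 9.89% of parous T cells (284 of 2872) and 21.2% of virgin T cells (528 of 2485). The gap between the libraries was thus of the same size at equal depth. The gap lay in the genes that admitted cells more than in those that removed them. A Ccr7 UMI was present in 27.0% of parous T cells (809 cells) and 48.7% of virgin T cells (1217 cells), and 646 parous and 1153 virgin cells also had Lef1, Dapl1 or Igfbp4. The 7 excluded genes then took away similar shares, 33.1% of the parous cells (214 cells) and 32.5% of the virgin cells (375 cells). Of the cells taken away, Cxcr6, the receptor for CXCL16, was present in 44.9% in the parous library and 78.1% in the virgin library. Granzyme B RNA was present in 27.6% of them in the parous library and 13.3% in the virgin library. A single UMI of the 7 genes was the reason in 42.5% of these cells in the parous library and 45.1% in the virgin library.

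**Figure D1:**
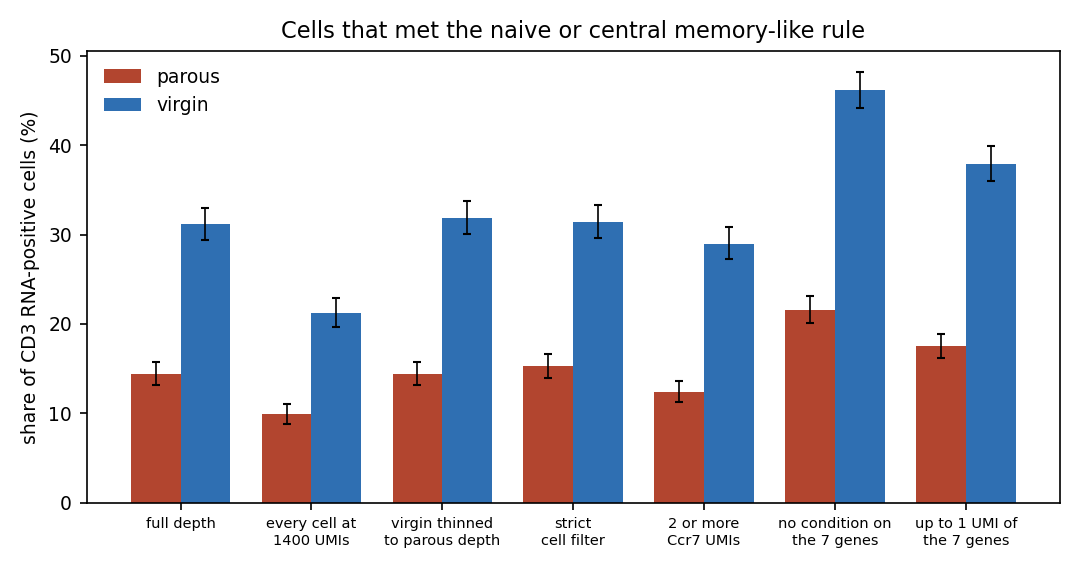
Share of T cells that met the rule, in percent of CD3 RNA-positive kept cells, in the parous (red) and virgin (blue) library under the rule as given and 6 changes of depth, cell filter or threshold. Bars show the share and lines its exact 95% interval, and the parous bar is the lower of the pair in each, from 9.89 against 21.2% at 1400 UMIs to 21.6 against 46.2% without the condition on the 7 genes.

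The 2 libraries held 14676415 UMIs over 4927 parous barcodes and 20166425 UMIs over 2526 virgin barcodes, of which 3019 parous and 2511 virgin barcodes were kept as cells. Summed over members, the comparison rested on 2194885 parous and 6035584 virgin UMIs. Mitochondrial RNA had a median of 1.39% of UMIs in parous and 1.37% in virgin members, and ribosomal protein genes had medians of 43.9% in parous and 40.9% in virgin members. Malat1, a nuclear RNA, took 0.399% of parous and 0.545% of virgin member UMIs, and Gm42418, which overlaps ribosomal RNA, took 0.778% of the parous and 1.38% of the virgin ones. AY036118, an unnamed transcript, took 0.0605% of parous and 0.155% of virgin member UMIs. The part of these differences in the results was not tested. The libraries shared 18 cell barcodes, 1 of which was a member in both.

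The label was checked against the lineage genes. RNA for CD8 (Cd8a or Cd8b1) was found in 96.3% of parous members and 99.4% of virgin members. The sort had taken CD8a-positive cells, so these shares do not check the naive or central memory part of the label. Cd4 was found in 1 of 432 parous members and 0 of 778 virgin members, where 3 cells would be 0.386%. Foxp3, a regulatory T cell gene, was found in 0 parous and 7 virgin members (0.90%). Trdc, a gamma-delta T cell gene, was found in 5 parous members (1.16%) and 9 virgin members (1.16%). Tcf7, which encodes the naive and memory transcription factor TCF-1 and was not used by the rule, was found in 76.4% of parous members and 92.7% of virgin members. Its level was 2.48-fold above other T cells in the parous library and 2.14-fold above them in the virgin library. The Tcf7 values go with the naive or central memory part of the label.

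Free RNA could give a Ccr7 UMI to a cell that does not express it, so T cells with both Fcer1g and Tyrobp RNA, an innate-like type, served as background at 1400 UMIs. Ccr7 was found in 76.5% of parous members and in 2.85% of the parous background cells (8 of 281, with medians before thinning of 4878 UMIs in members and 4335 UMIs in background cells). In the virgin library the shares were 74.0% of members and 18.2% of background cells (4 of 22, interval 5.19 to 40.3%, with medians of 7567.5 UMIs in members and 8162.5 UMIs in background cells). The rule had required a Ccr7 UMI of every member before thinning and had excluded every cell with Fcer1g RNA. The Ccr7 gap between members and background cells was therefore set by the rule and is no check of the members. The background shares only describe how often a Ccr7 UMI was found in innate-like cells, and the source of those UMIs was not tested. Ccl5, a chemokine gene of memory cells, was found in 99.3% of the parous background cells but in 23.8% of parous and 12.7% of virgin members.

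Most markers of other cell types were low, apart from Ighm, Ctla4 and Pecam1. Of 14 myeloid and dendritic cell genes none reached a mean of 20 CPM (counts per 1000000 UMIs of the members of a library), and they summed to 53.3 CPM in parous and 9.94 CPM in virgin members. The MHC class II gene Cd74 gave 30.1 CPM in parous and 2.98 CPM in virgin members, with UMIs in 17 parous and 11 virgin members, and the macrophage gene Cd68 gave 7.29 CPM in parous and 3.15 CPM in virgin members, while S100a8 and S100a9 were at 0 in both. The 9 B cell genes summed to 136 CPM in parous and 199 CPM in virgin members, most of it from Ighm. Ighm had 271 parous and 1064 virgin UMIs, found in 188 of 432 parous and 507 of 778 virgin members. Cd79b, a chain of the B cell receptor, had 11.4 CPM in parous members (UMIs in 23 cells) and 18.6 CPM in virgin members (UMIs in 91 cells), and Ms4a1, Pax5 and Ebf1 were at 0 in both. The part of these markers in the results below was not tested. The 7 CD4 and regulatory T cell genes summed to 94.8 CPM in parous and 132 CPM in virgin members, mostly from the inhibitory receptor gene Ctla4. Ctla4 UMIs were found in 110 parous and 312 virgin members. The 9 gamma-delta and innate-like T cell genes in the tables, all below the level filter, summed to 5.92 CPM in parous and 2.82 CPM in virgin members. The 13 mammary epithelial and milk genes summed to 10.9 CPM in parous and 4.14 CPM in virgin members, with casein UMIs in 2 parous members and in 0 virgin members. The 12 fibroblast, adipocyte and endothelial genes summed to 54.7 CPM in parous and 63.6 CPM in virgin members, of which Pecam1, a gene that T cells also express, gave 53.8 CPM in parous and 63.5 CPM in virgin members. The 7 erythroid and platelet genes summed to 0.456 CPM in parous and 0.994 CPM in virgin members.

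Members differed among themselves in how much of the marker set they held. Lef1 was found in 91.0% of parous members and 95.8% of virgin members, Dapl1 in 51.4% of parous and 61.6% of virgin ones, and Igfbp4 in 34.3% of parous and 52.6% of virgin ones. All 3 were found together in 16.7% of parous and 34.6% of virgin members. At the level of summed UMIs, Ccr7 had 1300.3 CPM in parous and 1135 CPM in virgin members. Lef1 had 528 CPM in parous and 634 CPM in virgin members. Igfbp4 had 147 CPM in parous members (interval 132 to 164) and 269 CPM in virgin members (interval 256 to 282), and its 1.83-fold lower level was the widest gap of the 4. Since these genes chose the cells, that gap is not a result.

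Cells at the edge of the rule held more memory RNA. Exactly 1 Ccr7 UMI was present in 61 parous members (14.1%) and 54 virgin members (6.94%). These cells had 2543 CPM of Ccl5 in the parous library against 2315 CPM in the virgin library, and members with 2 or more Ccr7 UMIs had 1337 CPM in the parous library against 819.6 CPM in the virgin library. Just outside, 113 parous and 98 virgin cells met every condition but Ccr7, and they had 8197 CPM of Ccl5 in the parous library against 6656 CPM in the virgin library. Tcf7 had 362 CPM in parous and 464 CPM in virgin members with 2 or more Ccr7 UMIs, 265 CPM in parous and 439 CPM in virgin members with 1, and 225 CPM in parous against 338 CPM in virgin cells just outside. In the virgin library the intervals of members with 1 and with more Ccr7 UMIs overlapped (373 to 512 and 446 to 482 CPM).

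The genes that set members apart from other T cells in both libraries, outside the rule, were named by the smaller of the 2 libraries' ratios, as a description of cells chosen from the same data. They were Slc6a19, a transporter of neutral amino acids, Ifngr2, a chain of the interferon gamma receptor, Igf1r, the receptor of insulin-like growth factor 1, H2-Ob, a chain of the MHC class II regulator DO, Plaur, the urokinase receptor, and Il6ra, the IL-6 receptor. St8sia1, a sialyltransferase, Tdrp, Auts2 and Ppic, a cyclophilin, completed the 10. Ifngr2 had 72.9 CPM in parous members and 9.86 CPM in other parous T cells, and 84.3 CPM in virgin members and 18.2 CPM in other virgin T cells. Il6ra had 63.8 CPM in parous members and 9.95 CPM in other parous T cells, and 74.2 CPM in virgin members and 17.4 CPM in other virgin T cells. Between parous and virgin members these 2 receptor genes stood less than 1.5-fold apart.

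**Figure D2:**
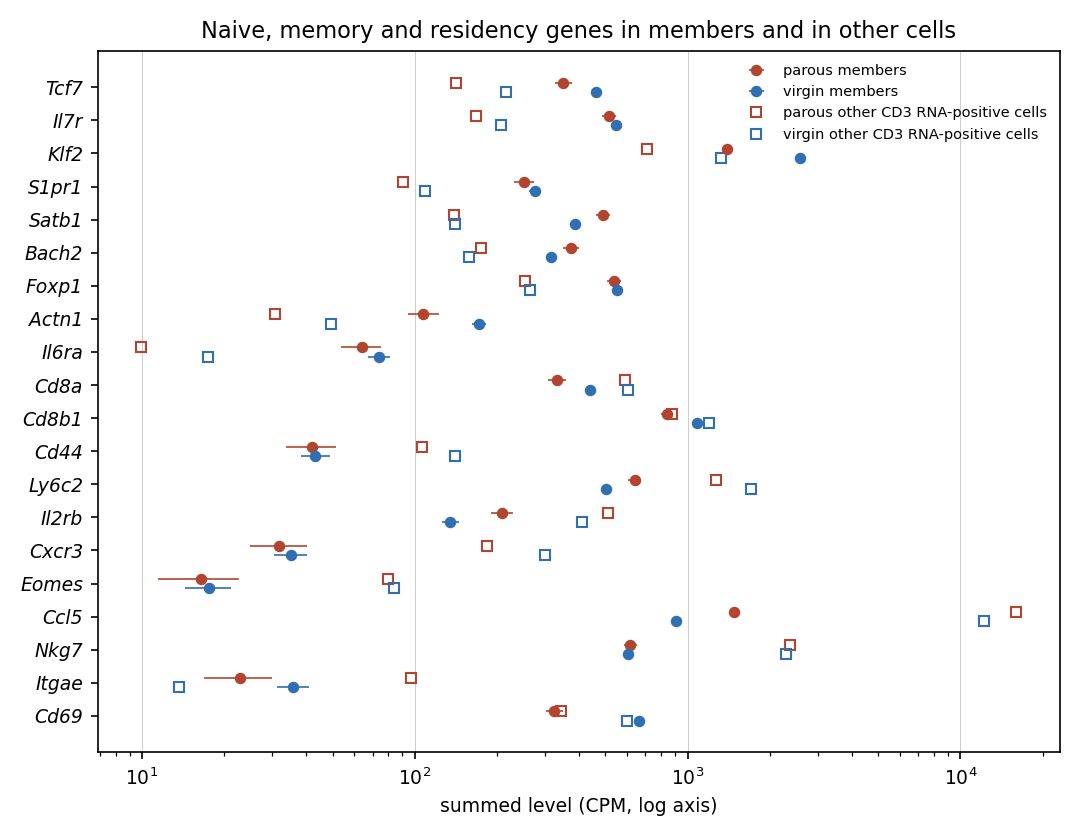
Summed level in CPM (log axis) of naive, memory and residency genes outside the rule in members (filled circles, lines are exact 95% Poisson intervals) and in other T cells (open squares) of the parous (red) and virgin (blue) library. Tcf7, Il7r, S1pr1 and Actn1 lie higher in members than in other T cells of both libraries, and Ccl5, Nkg7, Cxcr3, Eomes and Cd44 lie lower.

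Gene by gene, the members of the 2 libraries were close. Of 4995 genes with a mean of at least 20 CPM, and not used by the rule, 118 (2.36%) stood higher in parous members by 1.5-fold or more and 329 (6.59%) stood lower by as much, 8.95% in all. The median log2 ratio of parous over virgin members was -0.07, with quartiles of -0.29 and 0.12. The balance of the calls depends on scaling. With median-of-ratios scaling, which moved the median to 0.01, 172 genes were higher and 202 lower, so that 46.0% of the calls were higher ones, against 26.4% with scaling to total UMIs. Of the 69 genes named below or in the figures that were at least 1.5-fold apart, 69 kept their direction under that scaling, and 60 were still at least 1.5-fold apart.

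**Figure D3:**
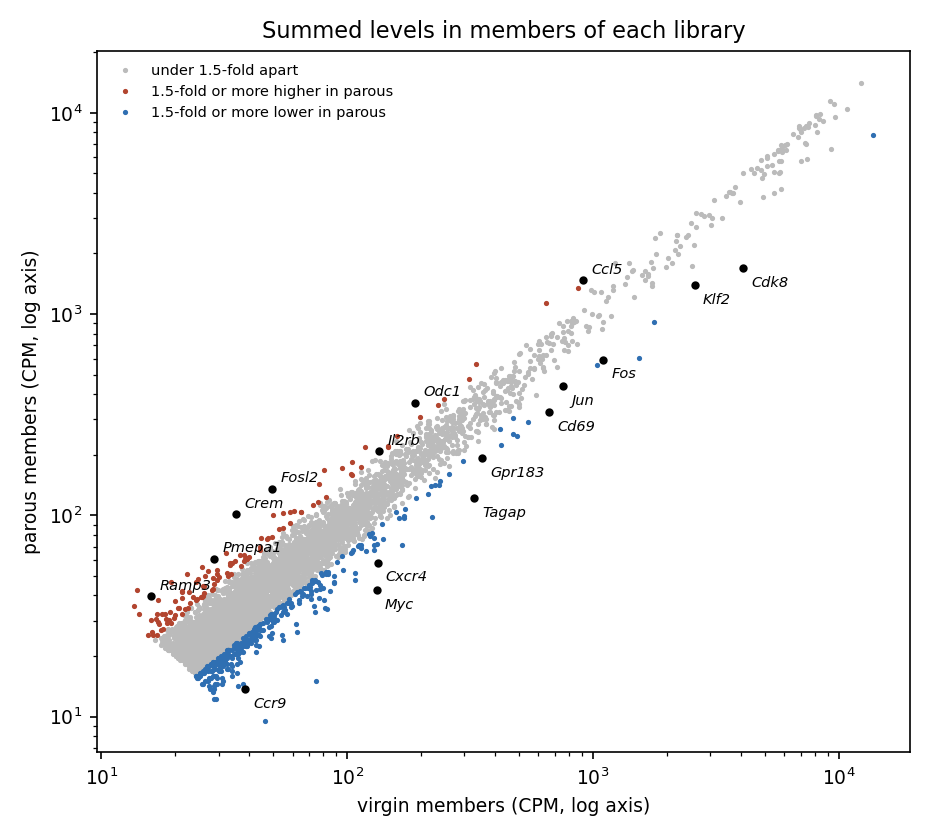
Summed level of each of 4995 genes in parous members (vertical axis) against virgin members (horizontal axis), in CPM on log axes, with genes at least 1.5-fold higher (red, 118 genes) or lower (blue, 329 genes) in parous members and named genes in black. Most genes lie along the diagonal, with Crem and Fosl2 above it and Myc, Tagap, Klf2 and Cdk8 below it.

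Crem and Fosl2 were the genes with the largest parous over virgin ratios among those the naming rule allowed. Crem encodes a family of activators and repressors that bind cAMP response elements. It had 102 CPM in parous members (223 UMIs, interval 88.7 to 116) and 35.3 CPM in virgin members (213 UMIs, interval 30.7 to 40.4), 2.88-fold higher (interval 2.37 to 3.49). Fosl2 (chr5:32135801-32157842, plus strand), a subunit of the dimeric transcription factor AP-1, had 136 CPM in parous members (298 UMIs) and 49.5 CPM in virgin members (299 UMIs), 2.74-fold higher (interval 2.33 to 3.23). Both were spread over many cells. At 2400 UMIs per member, Crem was found in 80 of 412 parous members (19.4%) and 57 of 774 virgin members (7.36%), and Fosl2 in 103 parous and 77 virgin members. The gaps were of similar size outside the population, with a log2 ratio for Crem of 1.53 in members and 1.59 in other T cells, and for Fosl2 of 1.45 in members and 1.62 in other T cells.

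Tubb2a, a beta-tubulin gene, had 168 CPM in parous members (interval 151 to 186) and 80.4 CPM in virgin members (interval 73.4 to 87.8), 2.09-fold higher. Its promoter is shown because, of the 8 genes among the 12 largest ratios with a RefSeq promoter entry, it was the only 1 with a CREB motif, and none of the 8 held the other 3 motifs. The capitals mark that motif, which starts 59 bases before the start of transcription and stands in 1.79% of all promoter windows. The window is on RefSeq GRCm38.p6, chr13:34077959-34078258, minus strand, 5′ to 3′. A match is a description of letters and shows no binding.
Tubb2a promoter: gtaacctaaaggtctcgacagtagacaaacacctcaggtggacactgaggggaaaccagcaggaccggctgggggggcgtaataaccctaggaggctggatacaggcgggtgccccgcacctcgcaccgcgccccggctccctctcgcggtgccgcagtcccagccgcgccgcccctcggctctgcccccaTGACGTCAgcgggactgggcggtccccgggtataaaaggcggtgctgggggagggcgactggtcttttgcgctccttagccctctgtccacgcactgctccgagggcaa

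The cAMP and CREB target genes had 4 of 14 measured genes at least 1.5-fold higher in parous members, beside 2.36% of all genes, and 1 lower, with a median log2 ratio of 0.33. In other T cells 6 of 14 were higher and 0 lower, with a median of 0.49. The share of all genes called in other T cells is not given here, so that count has no background beside it. The lists were chosen with earlier results of these data known, so these counts are a description. After Crem and Fosl2, Ramp3, which encodes a partner protein of receptors for adrenomedullin, had 39.6 CPM in parous and 15.9 CPM in virgin members, 2.49-fold higher (interval 1.84 to 3.37). Nr4a2, an orphan nuclear receptor gene induced by several signals, had 247 CPM in parous and 159 CPM in virgin members, 1.55-fold higher. The fifth, Dusp1, a phosphatase that turns off MAP kinases, was 1.55-fold lower, with 305 CPM in parous and 474 CPM in virgin members. Fosl2 and Nr4a2 also stood on the list of immediate early and AP-1 genes, which had a median of 0.02. Of its 19 measured genes 2 were higher and 3 lower, beside 2.36% of all genes higher and 6.59% lower. The 3 lower genes were Fos, Jun and Dusp1. Fos had 593 CPM in parous and 1101 CPM in virgin members, 1.86-fold lower, and Jun 438 CPM in parous and 758.5 CPM in virgin members, 1.73-fold lower. Members of 1 transcription factor family thus stood on opposite sides, Fosl2 higher and Fos and Jun lower in parous members. Of the heat shock genes, which encode chaperones, 0 of 10 were at least 1.5-fold apart, beside 8.95% of all genes, with a median of 0.00. Hspa1b, below the level filter, had 15 UMIs in parous and 152 UMIs in virgin members, 6.83 CPM in parous and 25.2 CPM in virgin members.

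Neto2, an auxiliary subunit of kainate receptors, had 51.0 CPM in parous and 22.2 CPM in virgin members, 2.30-fold higher. Tigit, an inhibitory receptor gene, had 32.3 CPM in parous and 14.2 CPM in virgin members, 2.27-fold higher. Pmepa1, a gene induced by TGF-beta that dampens Smad signalling, had 61.1 CPM in parous and 28.8 CPM in virgin members, 2.12-fold higher. Its gap was much wider in other T cells, with 110 CPM in the parous library against 18.2 CPM in the virgin library. Reps1, Kdm2b, Cwc25 and Map1lc3a, with roles in endocytosis, chromatin, splicing and autophagy, closed the 12 largest ratios at 1.96- to 2.03-fold.

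Myb differed by kind of member. This transcription factor gene, needed for stem-like memory CD8 T cells, had 55.1 CPM in parous members (121 UMIs) and 25.7 CPM in virgin members (155 UMIs), 2.15-fold higher (interval 1.68 to 2.74). In other T cells it had 16.0 CPM in the parous library against 16.2 CPM in the virgin library. Among members with no UMI of 5 memory genes (Ccl5, Cxcr3, Eomes, Il2rb and Nkg7 after thinning to 2400 UMIs), Myb had 88.7 CPM in the parous library (43 UMIs) and 16.7 CPM in the virgin library (28 UMIs). Among members with 2 or more of them it had 45.1 CPM in the parous library against 44.9 CPM in the virgin library. The 5 cells richest in Myb held 19.8% of its parous and 15.5% of its virgin member UMIs.

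Of the lower genes past the level filter that the naming rule allowed, Myc had the smallest parous over virgin ratio. Myc (chr15:61985391-61990374, plus strand) encodes a transcription factor of growth and ribosome production that T cells raise on stimulation. It had 42.4 CPM in parous members (93 UMIs, interval 34.2 to 51.9) and 132 CPM in virgin members (795 UMIs, interval 123 to 141), 3.09-fold lower. At 2400 UMIs, 39 of 412 parous members (9.47%) and 178 of 774 virgin members had a Myc UMI. Its log2 ratio was -1.63 in members and -1.25 in other T cells. Genes of ribosome biogenesis and other Myc targets did not share its distance. Of 24 measured genes 1 was at least 1.5-fold higher and 2 lower, beside 2.36 and 6.59% of all genes, and the median log2 ratio was -0.23. Mybbp1a, a nucleolar protein gene, was 1.97-fold lower, with 38.7 CPM in parous and 76.7 CPM in virgin members. Odc1, the first enzyme of polyamine synthesis and a known Myc target, stood on the other side, with 363 CPM in parous and 189 CPM in virgin members, 1.92-fold higher (interval 1.75 to 2.11).

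Tagap, which encodes a GTPase-activating protein of activated T cells, had 122 CPM in parous and 330 CPM in virgin members, 2.70-fold lower. Cdk8, the kinase of the Mediator complex, had 1688 CPM in parous and 4070 CPM in virgin members, 2.41-fold lower, and both genes were also lower in other parous T cells, with log2 ratios of -1.24 and -1.02. The level of Cdk8 lay above that of Klf2 (1393 CPM in parous and 2592 CPM in virgin members). The source of the reads counted for Cdk8 was not tested. Slc6a19, first among the genes that set members apart, had 24.1 CPM in parous and 54.7 CPM in virgin members, 2.25-fold lower. The other genes of the 12 smallest ratios were Apol7e, Kcnip1, Fam78a, Sh2d3c, Cxcr4, Filip1l, Sept9 and the linker histone gene Hist1h1c, at 2.22- to 2.35-fold lower. Of the 9 of these 12 genes with a RefSeq promoter entry, 0 held any of the 4 motifs.

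Genes of lymph node homing and exit leaned lower in parous members. Of 15 measured genes outside the rule, 0 were at least 1.5-fold higher and 4 lower, beside 6.59% of all genes, and the median log2 ratio was -0.24 (-0.17 with median-of-ratios scaling). In other T cells 1 of 14 measured genes was higher and 5 lower, with a median of -0.40. No share of all genes called in other T cells is given here to read that count against. Klf2 (chr8:72319033-72321656, plus strand), a transcription factor that drives S1pr1, had 1393 CPM in parous members (interval 1344 to 1444) and 2592 CPM in virgin members (interval 2551 to 2633), 1.86-fold lower. Its reported target was closer. S1pr1, the sphingosine-1-phosphate receptor for exit, had 251 CPM in parous and 276 CPM in virgin members. Ccr9, a gut-homing chemokine receptor that recent thymic emigrants carry, had 13.7 CPM in parous members (30 UMIs) and 38.3 CPM in virgin members (231 UMIs), 2.76-fold lower (fold over virgin 0.362, interval 0.236 to 0.524). Cxcr4, the receptor for CXCL12, had 58.3 CPM in parous and 133 CPM in virgin members, 2.27-fold lower. Gpr183, a receptor for oxysterols that guides cells within lymphoid tissue, had 192 CPM in parous and 355 CPM in virgin members, 1.84-fold lower. S1pr4 was the highest of the list, at a log2 ratio of 0.49, short of the threshold. All 4 lower genes were also lower in other parous T cells. The log2 ratios in members and in other T cells were -0.90 and -0.90 for Klf2 and -1.46 and -2.36 for Ccr9. For Cxcr4 they were -1.18 and -0.61, and for Gpr183 -0.88 and -0.37.

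Transcription factors of naive cells were mixed. Of 15 measured, 2 were higher and 2 lower by 1.5-fold, beside 2.36% of all genes higher and 6.59% lower, with a median of -0.13. Zeb1, a repressor needed for memory CD8 T cells, had 308 CPM in parous and 198 CPM in virgin members, 1.55-fold higher, and Myb was the other higher gene. Ikzf1, which encodes Ikaros, was 1.58-fold lower beside Klf2, with 187 CPM in parous and 296 CPM in virgin members. Tcf7, the gene of TCF-1, had 351 CPM in parous and 462 CPM in virgin members, 1.32-fold lower. Satb1 had 489 CPM in parous and 386 CPM in virgin members, Bach2 374 CPM in parous and 317 CPM in virgin members, and Foxp1, a guardian of quiescence, 538 CPM in parous and 552 CPM in virgin members. None of these last 3 reached 1.5-fold. Of 20 surface and metabolic genes of naive cells, 0 were higher and 5 lower (beside the same shares of all genes), namely Treml2, Actn1, Als2cl, Rapgef4 and Arhgef18, with a median of -0.33. Actn1, an actin crosslinker, had 107.5 CPM in parous and 172 CPM in virgin members. Il7r, the receptor for the survival cytokine IL-7, had 517 CPM in parous and 546 CPM in virgin members, and Cd8a had 333 CPM in parous and 440 CPM in virgin members. Of 6 recent thymic emigrant genes, Ccr9 alone reached the threshold, and the list median was -0.11, which turned to 0.16 with a level filter of 5 CPM.

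**Figure D4:**
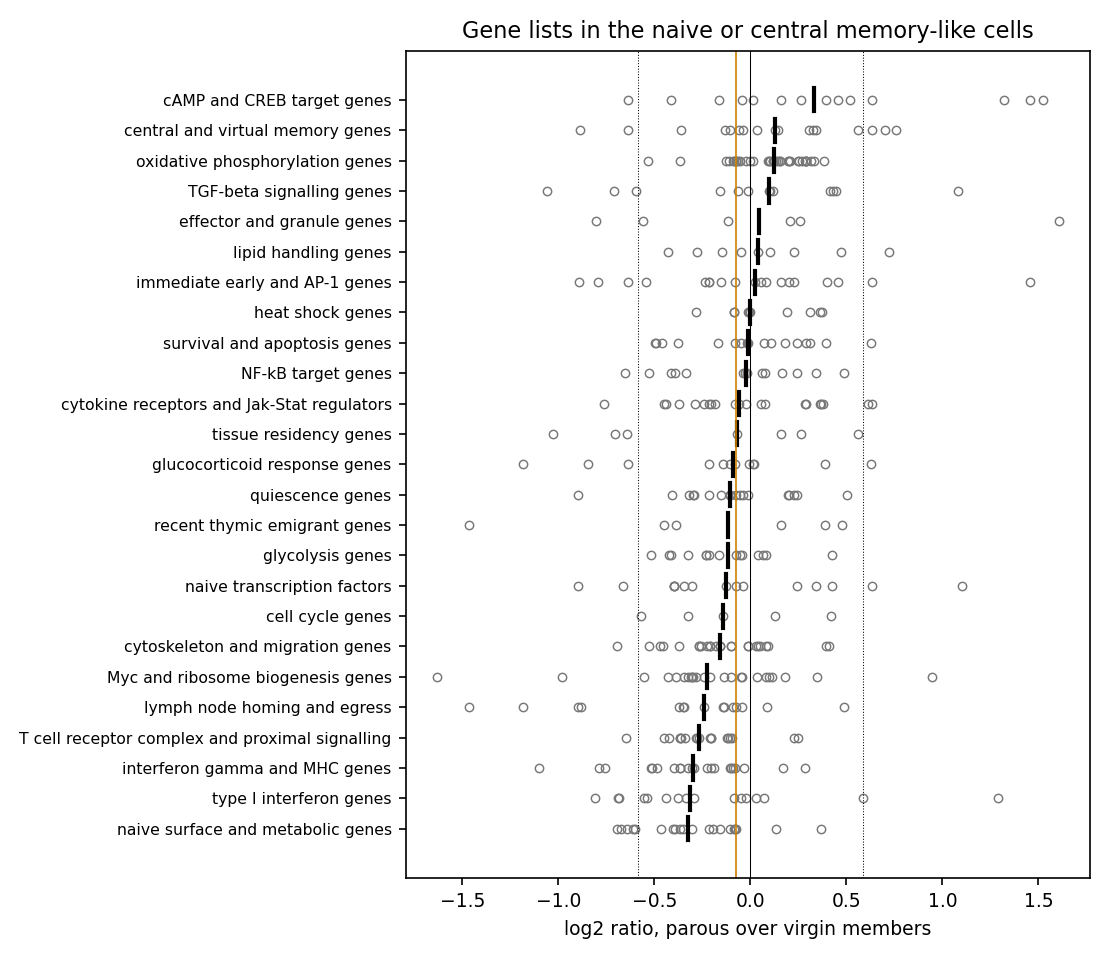
Log2 ratio of parous over virgin members for each measured gene (circles) of 25 gene lists, with each list's median (black bar), the median of all 4995 genes (orange line at -0.07) and the 1.5-fold thresholds (dotted lines). The cAMP and CREB target genes have the highest median, 0.33, and the naive surface and metabolic genes the lowest, -0.33.

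Cd69, whose protein holds T cells in tissue by pulling S1PR1 from the surface and also marks recent activation, was 2.04-fold lower, with 325 CPM in parous members (interval 301 to 350) and 663 CPM in virgin members (interval 643 to 684). At 2400 UMIs it was found in 46.8% of parous members and 64.6% of virgin members. Cd69 led the lower genes of the tissue residency list, where 0 of 7 measured were higher and 3 lower, beside 2.36% and 6.59% of all genes. The other 2 were Rgs1, a regulator of G-protein signalling (51.0 CPM in parous and 83.3 CPM in virgin members), and Itgae, the integrin chain CD103 (22.8 CPM in parous and 35.8 CPM in virgin members). Rgs1 and Itgae had the opposite direction in other T cells, with log2 ratios for Rgs1 of -0.70 in members and 0.81 in other T cells, and for Itgae of -0.64 in members and 2.83 in other T cells. Itgae stood at 97.1 CPM in other parous T cells and 13.6 CPM in other virgin T cells. The rule removed every cell with Itga1 or Cxcr6 RNA, genes that resident cells share with Itgae, so the members' Itgae level describes cells without that RNA.

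A larger share of parous members had at least 2 of the 5 memory genes, but not each of the 5 followed. Thinned to 2400 UMIs, which left out 20 parous and 4 virgin members, 32.5% of parous members (134 of 412, interval 28.0 to 37.3%) and 22.5% of virgin members (174 of 774, interval 19.6 to 25.6%) had at least 2 of the 5 memory genes. None of the 5 was found in 25.2% of parous members and 30.2% of virgin members, so 174 parous and 366 virgin members, with exactly 1 gene, lay next to the cut. Unthinned, 46.1% of parous and 41.4% of virgin members had at least 2. The rule had chosen members before thinning, at medians of 4861 UMIs in parous and 7567.5 UMIs in virgin ones. Cells left out by a single UMI of the 7 excluded genes had 3798 CPM of Ccl5 in the parous library and 1718 CPM in the virgin library. The part of depth at the choice of members in these shares was not tested. Of the 5 memory genes, Ccl5 and Il2rb were at least 1.5-fold apart. Ccl5 had 1480 CPM in parous members (interval 1430 to 1532) and 910 CPM in virgin members (interval 886 to 934), 1.63-fold higher. Il2rb, the receptor chain shared by IL-2 and IL-15, had 209 CPM in parous and 135 CPM in virgin members, 1.55-fold higher. Nkg7 had 617 CPM in parous and 603 CPM in virgin members, Cxcr3 31.9 CPM in parous and 35.1 CPM in virgin members, and Eomes 16.4 CPM in parous and 17.6 CPM in virgin members, all with overlapping intervals. Cd44, the surface protein by which memory cells are usually sorted, had 41.9 CPM in parous members and 43.2 CPM in virgin members.

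Ccl5 RNA was concentrated in few members, which the intervals of its summed level leave out. Cells with 10 or more Ccl5 UMIs were 16.7% of parous members (72 cells) and 10.3% of virgin members (80 cells), and they held 95.1% of the parous and 97.2% of the virgin Ccl5 UMIs. Cells with 0 Ccl5 UMIs were 68.1% of parous and 82.9% of virgin members. Members with 2 or more memory genes, a class that Ccl5 itself helps to define, had 3635 CPM of it in the parous library against 3326 CPM in the virgin library. Other T cells had 15992 CPM of Ccl5 in the parous library against 12198 CPM in the virgin library, so members with memory genes still lay far below them.

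Further genes that set members with 2 or more memory genes apart from members with none were named by the smaller gap of the 2 libraries. Their agreement between the libraries was thus part of the choice and is a description. S100a6, a calcium-binding protein gene of memory and effector cells, had 472 CPM in parous members with 2 or more memory genes and 4.13 CPM in those with none, and in the virgin library 591 CPM with 2 or more and 1.19 CPM with none. Anxa2, Ctla2a, Ly6c2, Lgals1, Ifitm10, Ahnak, Itgb1, Hopx and Pglyrp1 followed. Ly6c2, a marker of memory CD8 T cells in this strain, had 1317 CPM with and 128 CPM without memory genes in the parous library, and 1298 CPM with and 140 CPM without them in the virgin library. In the other direction stood Ramp1, Rgcc, Ifngr2, Tubb2a and Rflnb. Ramp1, the receptor partner for the neuropeptide CGRP, had 20.2 CPM with and 94.9 CPM without memory genes in the parous library, and 34.9 CPM with and 78.8 CPM without them in the virgin library. The cells with memory genes were also deeper, with medians of 5924.5 UMIs against 4594 in the parous and 8403.5 against 7064 in the virgin library, and the part of depth in these differences was not tested.

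The gaps in Crem, Fosl2, Myc, Klf2, Cd69 and Tagap were of similar size at both ends. Crem had 90.8 CPM in parous and 34.0 CPM in virgin members without memory genes, and 117 CPM in parous and 38.03 CPM in virgin members with 2 or more, log2 ratios of 1.42 and 1.62. Myc had 45.4 CPM in parous and 121 CPM in virgin members without memory genes, and 45.1 CPM in parous and 153 CPM in virgin members with them, log2 ratios of -1.38 and -1.75. For Klf2 the log2 ratios were -0.91 without and -0.85 with memory genes, for Cd69 -1.03 and -1.06, for Fosl2 1.43 and 1.49, and for Tagap -1.40 and -1.35. Ramp3 and Bcl2l11 had wider gaps in members without memory genes. Ramp3 had 59.8 CPM in parous and 14.9 CPM in virgin members without memory genes, on 29 parous and 25 virgin UMIs, and 20.2 CPM in parous and 11.8 CPM in virgin members with them. Bcl2l11, which encodes the death-promoting protein BIM, had 116 CPM in parous and 54.3 CPM in virgin members without memory genes, and 131 CPM in parous and 109 CPM in virgin members with them. Over all members Bcl2l11 was 1.54-fold higher in the parous library. It was the only 1 of 17 survival and apoptosis genes past 1.5-fold, beside 8.95% of all genes.

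**Figure D5:**
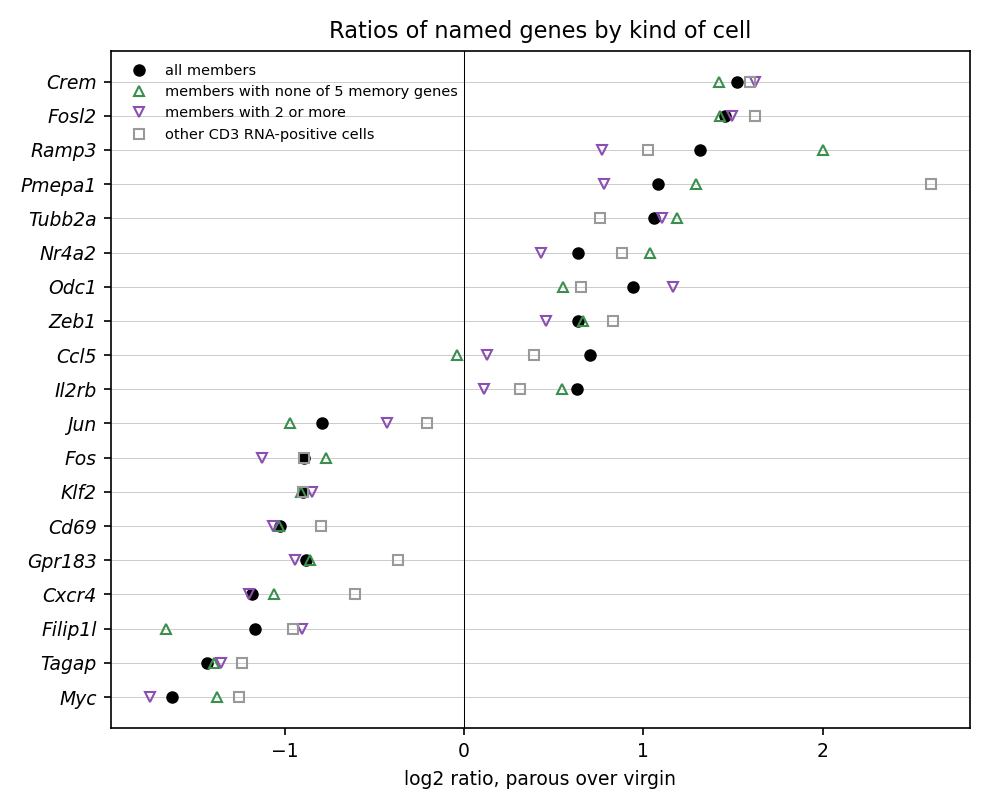
Log2 ratio of parous over virgin level for 19 named genes in all members (filled circles), in members with none (upward triangles) or with 2 or more (downward triangles) of the 5 memory genes, and in other T cells (squares). Crem, Fosl2, Tagap and Myc keep their direction in all 4 sets of cells, Ccl5 and Il2rb are 2 of the 5 genes that define the memory classes, and Pmepa1 has its largest ratio, 2.60, in other T cells.

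Of 17 central and virtual memory genes measured, 3 were at least 1.5-fold higher and 2 lower, with a median of 0.13. Of all genes, 2.36% were higher and 6.59% lower. Fasl, the death ligand, was the third higher gene, with 34.6 CPM in parous and 20.5 CPM in virgin members. Ly6a and Klrk1, which encode Sca-1 and the NKG2D receptor, were 1.85-fold and 1.55-fold lower, with 22.8 CPM in parous and 42.4 CPM in virgin members for Ly6a and 18.7 CPM in parous and 29.3 CPM in virgin members for Klrk1. Of 6 effector and granule genes 1 was higher and 1 lower, beside the same shares of all genes. Gzmm, a granzyme outside the rule, was 3.04-fold higher, with 42.4 CPM in parous and 13.9 CPM in virgin members. But only 7.18% of parous and 3.73% of virgin members had a UMI of it, and 5 cells held 41.9% of the parous and 38.1% of the virgin UMIs. Ccl4, a chemokine gene of stimulated cells, was 1.74-fold lower, with 17.3 CPM in parous and 30.5 CPM in virgin members, and 5 cells held 63.2% of its parous UMIs.

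Both interferon lists had medians below the -0.07 of all genes, with few genes past 1.5-fold. Of 16 type I interferon genes, 2 were higher by 1.5-fold, Isg15 and Ifi27l2a, and 3 lower, among them Ifi209 and Trim30a, beside 2.36% higher and 6.59% lower over all genes, with a median of -0.31. Isg15, a ubiquitin-like protein gene, had 46.9 CPM in parous and 19.2 CPM in virgin members, 2.44-fold higher. Among 22 interferon gamma and MHC genes 0 were higher and 3 lower, the guanylate-binding protein genes Gbp2 and Gbp7 and the immunity-related GTPase gene Irgm1, and the median was -0.30. Irgm1 had 16.4 CPM in parous and 35.6 CPM in virgin members, 2.15-fold lower. Ifngr1, the ligand-binding chain of the interferon gamma receptor, stood on the other side, with 478 CPM in parous and 313 CPM in virgin members, 1.53-fold higher.

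Signalling lists had calls in both directions, read beside 2.36% of all genes higher and 6.59% lower. Of 21 cytokine receptor and Jak-Stat genes, Il2rb and Ifngr1 were higher and Jak3 lower, with 21.4 CPM of Jak3 in parous and 36.6 CPM in virgin members. On the TGF-beta signalling list 1 of 13 genes was higher, Pmepa1, and 3 lower, Tgfbr3, Tgfb1 and Skiv2l, with a median of 0.10. Skiv2l encodes an RNA helicase and is not a gene of TGF-beta signalling, although the list held it. Tgfbr3, the co-receptor betaglycan, had 13.7 CPM in parous and 28.8 CPM in virgin members. T cell receptor complex and proximal signalling genes had 0 of 19 higher and 1 lower, the adaptor gene Lcp2 (78.8 CPM in parous and 124 CPM in virgin members), with a median of -0.27. Among 12 glucocorticoid response genes Bcl2l11 was higher and Cxcr4, Tsc22d4 and Dusp1 lower, with a median of -0.09. The NF-kB targets had 1 of 14 lower, Tnf, the gene of tumour necrosis factor, with 21.4 CPM in parous and 34.0 CPM in virgin members.

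Metabolic and structural lists were nearly level. Of 37 oxidative phosphorylation genes and 14 glycolysis genes 0 were past 1.5-fold in either direction, beside 8.95% of all genes, with medians of 0.12 and -0.12. The lipid handling list, relevant to a fat pad, had 9 of 26 genes measured, and Insig1, a sterol sensor, was the 1 that was higher, with 26.4 CPM in parous and 16.1 CPM in virgin members. The quiescence list had 1 of 19 lower, Klf2, and the cytoskeleton and migration list 1 of 25, Evl, an actin regulator, with 141 CPM in parous and 228 CPM in virgin members. Cell cycle genes were mostly below the filter, with 5 of 20 measured and 0 past 1.5-fold, and Mki67 or Top2a RNA, a mark of dividing cells, was found in 2.55% of parous members and 2.70% of virgin members.

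The T cell receptor beta V segments were spread widely in members of both libraries. A Trbv gene could be assigned to 335 parous members (77.5%) and 668 virgin members (85.9%). The effective number of segments (the inverse Simpson number, the count of equally used segments that would give the same diversity) was 14.4 in parous and 15.6 in virgin members, close to 14.7 in other parous and 15.3 in other virgin T cells. With 335 cells drawn from each library it was 14.4 in parous and 15.2 in virgin members. Its direction turned when a segment was assigned from 1 UMI upward with all Trbv UMIs of 1 gene, to 15.7 in parous and 15.6 in virgin members. Trbv13-2 was the most common segment in both, with 10.1% of parous members (34 cells, interval 7.13 to 13.9%), against 10.9% of virgin members (73 cells, interval 8.66 to 13.5%). The next in parous members were Trbv1 (9.25%), Trbv13-3 (8.66%), Trbv3 (8.36%) and Trbv12-1 (8.06%), and the next in virgin members were Trbv29 (8.98%), Trbv13-1 (8.08%), Trbv16 (7.63%) and Trbv1 (6.74%). Outside the population other shares were seen. Trbv3 was 13.2% of other parous T cells and 8.36% of parous members, and Trbv31 was 10.6% of other virgin T cells and 3.29% of virgin members. UMIs of a second segment, at least 2 of each, were found in 10.6% of parous and 20.2% of virgin members, and in 10.8% of other parous and 23.1% of other virgin T cells. These shares were not thinned and parous members were the shallower ones, and the part of depth, of doublets and of second rearranged chains was not tested.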

How the data were processed

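The authors deposited UMI counts per gene and cell barcode, with no normalization. The file headers name Cell Ranger 7.0.0, and the submitters' processing notes name the mm10 build, R 4.4.2 and Seurat, with no role for each. The sources used here do not give the settings for calling cells. A barcode was kept as a cell from 500 genes and 1000 UMIs upward if mitochondrial UMIs were under 10%, which left out 1908 of 4927 parous and 15 of 2526 virgin barcodes. No doublet caller was run, and an alternative left out the 5% of members with most UMIs. Counts were summed over the members of each library and divided by their total (CPM). Before the log2 ratio 0.5 was added to every sum, and there was no test or p-value because each group was 1 library. Intervals are exact Poisson, Clopper-Pearson or conditional ratio intervals. The members and the gene lists were chosen with earlier results of these data known. Of 600 list entries 595 matched a symbol.

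Named genes were the 12 largest and 12 smallest ratios of genes that averaged 20 CPM or more, had at least 30 UMIs in 1 library and had no more than 25% of UMIs in any 5 cells, without rule genes, receptor segments, ribosomal, mitochondrial and unnamed genes. They also took in up to 6 members of each list at least 1.5-fold apart, a set chosen by hand, the 10 genes highest in members over other T cells in both libraries, and the 5 most common Trbv genes of each library. A cell was given a Trbv gene when that gene had 2 or more UMIs and 2/3 or more of all Trbv UMIs in the cell. Marker levels of other cell types and genes below the filter are given beyond that rule, chosen after their values were seen. Also beyond it, genes that set the memory classes apart averaged at least 50 CPM over the 2 classes in each library. They were ranked by the smaller gap of the 2 libraries. Some genes of the lists are not reported here by name. Promoters came from RefSeq (GRCm38.p6). Ratios and intervals were tested on simulated counts. Python 3.11.15, numpy 2.4.6, scipy 1.17.1, pandas 2.3.3 and matplotlib 3.10.9 were used.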

Additional observations from a re-analysis of the deposited data

Results flagged for a closer look

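Barcodes that failed the cell filter were not part of the comparisons. Of 1908 such parous barcodes, 10 (0.524%, interval 0.252 to 0.962%) had CD3 RNA and met the gene conditions of the rule, with a median of 787.5 UMIs. Of 15 such virgin barcodes 0 did (interval up to 21.8%). This is a signal in data that the comparisons did not use, and its source was not tested.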

How the results depend on the processing

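No paired analysis was possible because each group was 1 library. The share of members in the parous library divided by that in the virgin library was 0.464, and it was 0.465 at 1400 UMIs, 0.428 (12.4% in parous and 29.0% in virgin T cells) with at least 2 Ccr7 UMIs, 0.468 without the condition on the 7 genes and 0.461 with up to 1 UMI of them. The count of genes at least 1.5-fold higher (118) was 252 with totals without ribosomal, mitochondrial and receptor genes, Malat1 and Gm42418, 288 with a mean of at least 5 CPM, 44 with at least 50 CPM, 1622 with no filter, 216 without members with 2 or more memory genes, and 14 at 2-fold. The count of lower genes (329) was 202 with median-of-ratios scaling, 1099 with at least 5 CPM, 100 with at least 50 CPM, 2061 with no filter, and 36 at 2-fold. The ratio of shares with at least 2 memory genes, parous over virgin, was 1.45, and it was 1.11 without thinning, 1.07 for at least 1 gene and 1.45 for at least 3 genes (13.1% of parous and 9.04% of virgin members). The ratio of effective Trbv numbers (0.925) turned to 1.003 when segments were assigned from 1 UMI. Stricter or looser filters change the number of genes tested, and the cause of the other moves was not tested. Of the 69 named genes at least 1.5-fold apart, 69 kept their direction under each of 8 settings and 57 to 68 stayed past 1.5-fold. Of 275 list medians under alternatives, 263 lay within 0.15 of the value given. With 1 library per group, a gap between pools of mice and a gap between libraries cannot be told apart.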
